A study of Mus musculus with 4 samples.

Results

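Levels of 8 genes linked to Alzheimer and Parkinson disease, Mapt, App, Bace1, Apoe, Park2, Park7, Pink1 and Lrrk2, were examined in mature olfactory sensory neurons of the mouse. They were chosen by symbol, and they fill 10 of the 28168 rows of the deposited table, because Bace1 and Park2 each have 2 rows. Mature olfactory sensory neurons are the odour-detecting cells of the nasal epithelium, and here they were sorted by fluorescence from dissociated epithelia of transgenic mice. The Nd1 line is described by the series title as carrying double-stranded RNA encoded in its genome, and its design text speaks of neurodegeneration. The 2 Nd1 libraries came from mice heterozygous for Nd1, for OMP-IRES-tTA and for OMP-IRES-GFP, at ages of 212 days (replicate 1) and 87 days (replicate 2). OMP-IRES-tTA places tTA, a transcriptional activator, and OMP-IRES-GFP a green fluorescent reporter, at the gene of olfactory marker protein, which mature neurons express. The control of replicate 1, at 212 days, had Nd1 and the GFP reporter but no tTA, and the control of replicate 2, at 87 days, had tTA and the GFP reporter but no Nd1. All 4 libraries thus came from mice with the GFP allele, and the controls differ from each other in genotype as well as in age. How many mice entered a library is not given in the labels.

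The authors deposited a single FPKM value per group, a fragment count corrected for transcript length and library size, which pools the 2 libraries of the group. A value per library, its spread and the read depth can therefore not be given for any gene below. A change was called where the authors' q-value was under 0.05. An error for each tested gene was recovered by dividing the authors' log2 fold change by their test statistic, since their p-values equal the two-sided normal p of that statistic within 2.8e-06. The resulting standard error (SE) and 95% interval carry the authors' own estimate of variance. How that estimate weighed the difference between the 2 libraries of a group is not given in the sources used here.

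Tau, the product of Mapt, binds and stabilises axonal microtubules and forms tangles in Alzheimer disease. App encodes the membrane protein from which the beta-secretase Bace1 and the gamma-secretase complex release amyloid-beta, and Apoe encodes a lipid carrier, secreted mainly by glia in the brain, whose human alleles set Alzheimer risk. Pink1 is a mitochondrial kinase that recruits and activates the ubiquitin ligase parkin, encoded by Park2, on damaged mitochondria, and Park7 encodes DJ-1, a protein of the oxidative stress response. Lrrk2 is a kinase of Rab GTPases. The olfactory epithelium is of interest for these genes because loss of smell is an early sign of both diseases.

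Promoter sequences of 5 of the members, App, Apoe, Park7, Pink1 and Lrrk2, were taken from RefSeq on GRCm38.p6. They run from 250 bases before to 50 bases after each annotated start, 5′ to 3′ on the gene's strand. Those of Pink1 and Park7 are shown because these genes, which act on mitochondria and oxidative stress, had nearly equal levels in the 2 groups and share a motif. That of Apoe, at the outermost of its 3 annotated starts, is shown because it was the member that fell. Capitals mark matches to GCGCANGCG, the core of the site of nuclear respiratory factor 1 (NRF1), a transcription factor of nuclear genes for mitochondrial proteins, on either strand.
Pink1, chr4:138326247-138326546, minus strand: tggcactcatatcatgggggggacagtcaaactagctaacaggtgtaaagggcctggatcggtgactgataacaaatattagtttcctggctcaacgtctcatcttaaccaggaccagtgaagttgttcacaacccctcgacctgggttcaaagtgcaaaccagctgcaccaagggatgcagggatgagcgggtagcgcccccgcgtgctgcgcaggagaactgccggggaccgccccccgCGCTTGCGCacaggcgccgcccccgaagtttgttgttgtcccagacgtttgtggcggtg
Park7, chr4:150909872-150910171, minus strand: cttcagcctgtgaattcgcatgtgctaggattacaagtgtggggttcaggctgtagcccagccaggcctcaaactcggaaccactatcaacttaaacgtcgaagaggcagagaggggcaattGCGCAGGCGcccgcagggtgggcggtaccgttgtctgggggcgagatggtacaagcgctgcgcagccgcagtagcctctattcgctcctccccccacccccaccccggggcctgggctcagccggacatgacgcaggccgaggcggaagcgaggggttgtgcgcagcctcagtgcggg
Apoe, chr7:19699139-19699438, minus strand: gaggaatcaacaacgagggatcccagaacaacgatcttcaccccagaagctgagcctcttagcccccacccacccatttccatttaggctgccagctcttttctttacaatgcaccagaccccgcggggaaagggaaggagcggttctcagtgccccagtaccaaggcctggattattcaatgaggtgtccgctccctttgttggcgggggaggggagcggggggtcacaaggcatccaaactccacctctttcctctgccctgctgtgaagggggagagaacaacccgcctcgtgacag
The match read CGCTTGCGC in Pink1, where it occupied the 9 bases just before the start, and GCGCAGGCG in Park7, where it began 128 bases before it. Of all 32851 promoters in the RefSeq table, 6.25% hold this motif. App, also at nearly equal levels in the 2 groups, had no match to it, and neither had Apoe or Lrrk2. On both strands 8 other motifs were searched. They were the core of the interferon-stimulated response element GAAANNGAA, the STAT site TTCNNNGAA, the cyclic AMP element TGACGTCA, the E-box CAGCTG, the GC box GGGCGG, the core of the lysosomal CLEAR element TCACGTGA, the antioxidant core TGACNNNGC and the TATA box TATAAA. The motifs and their short forms were chosen after matches had been seen. In the 7 member promoters the STAT site, the cyclic AMP element and the CLEAR core found no match. Of all promoters 8.30%, 1.79% and 0.974% hold them, so their absence from 7 promoters says little. The interferon core was found in Apoe, in the sequence printed here, and in 8.56% of all promoters. The GC box was found in Pink1, Park7, Lrrk2 and App and in 35.7% of all promoters, and the TATA box in Apoe, at another of its starts, and in 13.6% of all promoters. The E-box was matched in Pink1 and App (16.3% of all promoters) and the antioxidant core in App (12.4%).

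Across the 8 genes, Mapt and Park2 rose in Nd1, Apoe fell, and App, Park7 and Pink1 did not pass the authors' threshold. Bace1 carries no call because the authors' test failed there, and Lrrk2 was not tested, at values near 0. Of the 6 tested members 3 were called, 2 higher and 1 lower. Over all 14841 tested loci 34.4% were called, 15.1% higher and 19.2% lower, and 30.3% of the tested loci other than odorant receptors were called. With 6 genes tested, the members' share is not a result about them as a set. Their median log2 ratio, with 1 FPKM added to each value, was -0.012, beside -0.058 over all tested loci.

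**Figure D1:**
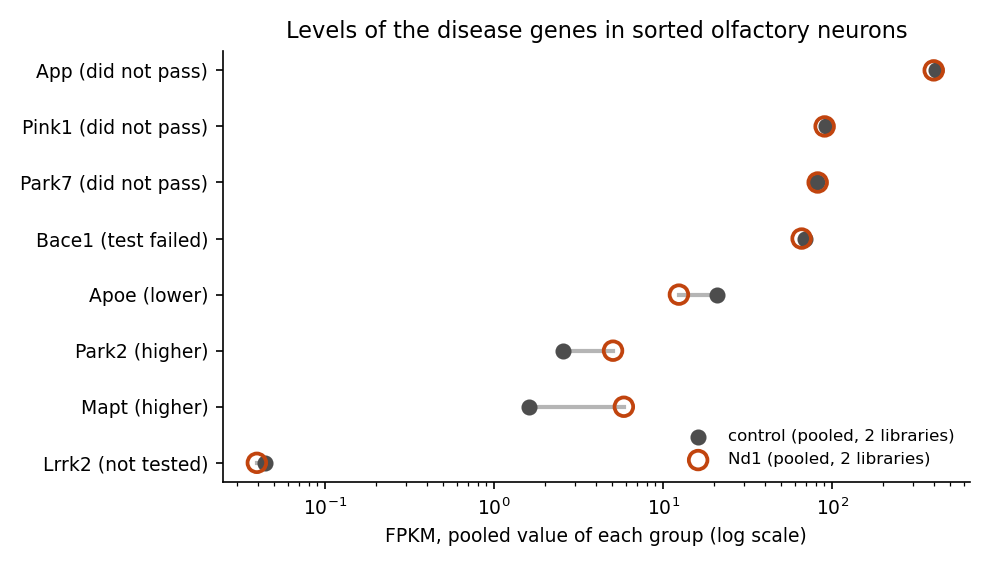
Pooled FPKM of each member on a log axis, control as filled points and Nd1 as open circles, ordered by the control level, with the authors' call beside each symbol. App stands highest at 411 and 399 FPKM and Lrrk2 lowest at 0.044 and 0.039, while the circles part from the points for Apoe, Park2 and Mapt.

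The members spanned a wide range of levels in control. App was listed at 411 FPKM, Pink1 at 92.2, Park7 at 81.9, Bace1 at 69.4, Apoe at 20.9, Park2 at 2.56, Mapt at 1.62 and Lrrk2 at 0.044 FPKM. In Nd1 the order of the first 5 was the same, with App at 399, Pink1 at 90.3, Park7 at 82.1, Bace1 at 66.0 and Apoe at 12.4 FPKM. The order of Park2 and Mapt was turned, since Mapt stood at 0.633 times the Park2 level in control and at 1.16 times that level in Nd1. Without values per library it cannot be said which neighbours in either order differ beyond their spread. App lay above 99.5% of all tested loci in control, and Pink1 and Park7 above 96.3% and 95.6% of them. Mapt lay above 22.1% of the tested loci in control and above 43.8% in Nd1, and above 57.0% and 68.6% of all loci. The 4 Alzheimer genes summed to 503 FPKM in control and 483 in Nd1, of which App made up 81.7% in control, and the 4 Parkinson genes summed to 177 and 178 FPKM.

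Mapt (mm9 chromosome 11, 104092750 to 104193407, plus strand) rose from 1.62 FPKM in control to 5.86 in Nd1. The log2 fold change was 1.86 in the authors' deposited table, with q listed as 0, and the SE derived from it was 0.13, a 3.62-fold rise with an interval of 3.05 to 4.29. On the log2(FPKM + 1) scale Mapt changed by 1.39, and 328 tested loci had a larger value. The reference annotation lists 8 protein-coding transcripts of Mapt, and the table sums over isoforms, so which forms of tau RNA rose is not known. The next named row, 1700081L11Rik, 1135 bases from the end of the Mapt interval, stood at 33.7 and 28.3 FPKM and did not pass.

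Markers of immature and of mature olfactory sensory neurons were measured beside Mapt. Over all tested loci 34.4% were called, 15.1% higher and 19.2% lower. Of 15 tested markers of immature olfactory sensory neurons, the young neurons that precede the mature ones, 10 rose and 2 fell in the authors' deposited table, and their summed level over 16 genes was 730 FPKM in control and 1177 in Nd1. Single levels in that list ran from 0.571 to 247 FPKM in control and from 3.20 to 453 in Nd1. Gap43, a growth cone protein, went from 12.2 to 24.9 FPKM, the G protein subunit Gng8 from 3.11 to 71.7 and the neuronal tubulin Tubb3 from 247 to 453. The 2 that fell were Trib3, a pseudokinase, from 14.5 to 3.55 FPKM, and the deacetylase Hdac9, from 52.3 to 32.3, while Dcx (55.9 and 57.2 FPKM) and Stmn3 (141 and 156) did not pass. Markers of mature neurons moved the other way, with 10 of 14 tested lower and 1 higher and a summed level over 16 genes of 18669 and 8377 FPKM. The defining marker Omp fell from 4087 to 605 FPKM, Cnga2 from 860 to 486 and Cnga4 from 471 to 341, so markers of the labelled cell type were high in both groups. The 1 that rose was the transcription factor Ebf1, from 108 to 166 FPKM. The GFP reporter and tTA are both placed at Omp. All 4 libraries had the reporter, and only the control of replicate 1 lacked tTA. The part of these shifts in the rise of Mapt was not tested, and in pooled RNA more cells of a kind and more RNA per cell cannot be told apart.

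Other genes of tau biology were taken from lists. Among microtubule-associated proteins, 11 of 14 were tested, 2 rose and 2 fell in the authors' deposited table. The called share was 36.4%, near the 34.4% of all tested loci. Mtap2, the dendritic relative of tau, rose from 8.54 to 52.4 FPKM, and the doublecortin-like kinase Dclk1 rose from 4.69 to 19.0 FPKM. Their log2 fold changes were 2.62 (SE 0.06) and 2.02 (SE 0.07), both with q listed as 0 in the authors' deposited table. Mtap2 and Dclk1 were the only called rises in that list, and the test failed for Mtap4, at 7.59 and 11.3 FPKM. Mtap1s fell from 22.7 to 17.8 FPKM and Mtap7 from 37.1 to 32.3, while the abundant Mtap1b, at 378 and 411 FPKM, did not pass.

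Of 22 tested kinases, phosphatases and chaperones of tau, 5 rose and 1 fell in the authors' deposited table. The called share was 27.3%, beside 34.4% of all tested loci. The Src-family kinase Fyn rose from 3.50 to 6.04 FPKM. Ppp2cb and Ppp2r1a, subunits of the main tau phosphatase, rose from 29.1 to 39.1 and from 93.9 to 120 FPKM, Cdk5r1, the p35 activator of Cdk5, from 2.00 to 2.89, and Mapk3 from 38.2 to 42.9 FPKM. The tau tubulin kinase Ttbk1 fell from 34.9 to 29.7 FPKM. Gsk3b, a major tau kinase, stood at 53.7 and 57.8 FPKM and Cdk5 at 19.5 and 19.7, and neither passed. The list median was 0.05 and that of the microtubule-associated proteins 0.03, beside -0.058 for all tested loci on the same log2(FPKM + 1) scale.

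Apoe (mm9 chromosome 7, 20281593 to 20284515, minus strand) fell from 20.9 to 12.4 FPKM. The authors' deposited table gives it a log2 fold change of -0.75 and q = 3.57e-06, and with the derived SE of 0.15 it was 1.69-fold lower in Nd1, with an interval of 1.38-fold to 2.07-fold. On the log2(FPKM + 1) scale 8.59% of the tested loci changed by a lower value. The flanking genes of Apoe did not pass. Tomm40, a mitochondrial import pore, stood at 22.2 and 20.7 FPKM, with 2146 bases between the intervals, and the apolipoprotein Apoc1 at 0.498 and 0.335 FPKM.

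Apoe is made in many tissues by glia, macrophages and epithelial cells, and the markers of such cells were measured beside it. The counts of calls below stand beside 15.1% higher and 19.2% lower over all tested loci, and most of these lists held few tested genes. Of 15 macrophage and microglia markers 14 have a row of their own, none is listed at 0, and single levels ran from 0.064 to 0.900 FPKM in control and from 0.026 to 0.465 in Nd1, summing to 3.31 and 2.37. Only 4 were tested and 1, Ptprc, was lower, while Aif1, Csf1r and Cd68 stood at 0.238, 0.111 and 0.205 FPKM in control and at 0.465, 0.104 and 0.202 in Nd1. The 11 glial markers ran from 0.042 to 2.27 FPKM in control and from 0.025 to 1.78 in Nd1, summing to 8.02 and 7.09, with none listed at 0 and none of 7 tested called. S100b and Sox10 of that list stood at 0.572 and 0.370 FPKM in control and at 0.443 and 0.168 in Nd1. Markers of sustentacular cells, the supporting epithelium, were higher, from 0.854 to 254 FPKM in control and from 0.627 to 234 in Nd1. They summed to 390 and 337 FPKM over 11 genes, with 4 of 11 tested lower and 1 higher and none listed at 0. Most of that sum came from Sult1d1, at 254 and 234 FPKM, which did not pass. Cyp2g1, Cyp1a2 and Cyp2a5 of that list stood at 15.8, 2.40 and 30.9 FPKM in control and at 15.3, 2.18 and 28.0 in Nd1, and did not pass. The 4 lower ones were Cbr2 (50.2 to 32.2 FPKM), Krt18 (15.5 to 8.97), Krt8 (6.48 to 3.90) and Sox2 (3.12 to 1.76). Their log2 fold changes ran from -0.82 to -0.64 in the authors' deposited table. Slco4c1 was the higher one, at 3.36 and 5.37 FPKM. Neutrophil markers fell in 8 of 9 tested and summed to 34.4 and 7.18 FPKM, and those of horizontal basal cells fell in 4 of 4 and summed to 12.8 and 6.29. Bowman gland and respiratory markers fell in 6 of 7 tested and rose in 1. These markers summed to 232 and 105 FPKM, most of it from Bpifa1 (184 and 68.1 FPKM). Those of endothelial and mural cells summed to 12.6 and 9.51 FPKM, with 2 of 5 tested lower and 1, Pecam1, higher. Globose basal cell markers summed to 1.95 and 1.82 FPKM, with 1 of 2 tested lower and 4 not tested. Lymphocyte markers summed to 0.472 and 0.218 FPKM, with the 1 tested not called and 7 not tested. The part of any of these cells in the Apoe change was not tested.

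Receptors and lipid transfer partners of ApoE gave 1 rise and 3 falls among 13 tested genes in the authors' deposited table, with a list median of -0.009. The called share was 30.8%, near the 34.4% of all tested loci. Abca1, the transporter that loads lipid onto ApoE, rose from 0.423 to 1.29 FPKM. Abcg1, a sterol transporter, fell from 38.9 to 26.0 FPKM, and the nuclear receptors Rxra and Nr1h2, partners in the liver X receptor that drives Apoe and Abca1, fell from 12.4 to 6.43 and from 35.5 to 28.9 FPKM. The ApoE receptors Vldlr (4.96 and 4.16 FPKM) and Lrp1 (2.70 and 2.88) did not pass, and the test failed for Lrp8 (21.4 and 19.8 FPKM). Trem2, a microglial receptor that binds ApoE, was not tested, at 0.070 and 0.026 FPKM.

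App (mm9 chromosome 16, 84954681 to 85173952, minus strand) was listed at 411 FPKM for control and at 399 for Nd1. The authors' deposited table gives it a log2 fold change of -0.04 and q = 0.848, and the interval for the fold, 0.819 to 1.15, leaves out changes as large as those of Mapt, Park2 or Apoe. The antisense gene Gm10791 shares the interval of App in the table, at 5.45 and 6.65 FPKM, and did not pass. Whether strand was used in counting is not given in the sources used here, so reads of App and Gm10791 may not be separable.

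Bace1 (mm9 chromosome 9, 45646612 to 45744141, plus strand) has 2 rows with the same interval, at 69.4 and 66.0 FPKM in the higher one and at 14.6 and 13.3 FPKM in the lower one, control first. The test failed for both, so the table lists no usable fold or p for this gene, and the level in Nd1 was 95.1% and 90.8% of control. Rnf214, Pcsk7 and Tagln are listed with that interval too, and all of them failed. Rnf214 stood at 50.3 and 50.2 FPKM. The test failed for 616 rows in all, in 473 intervals, and in 467 of these every row failed. The interval given for Bace1 therefore spans its neighbours and is not the extent of the gene.

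The rest of the amyloid pathway held 1 call among the secretases, 14.3% of those tested, beside 34.4% of all tested loci. Of 7 tested, nicastrin, Ncstn, a subunit of gamma-secretase, rose from 32.5 to 41.5 FPKM. In the authors' deposited table its log2 fold change is 0.35 and q = 0.0211. The alpha-secretase Adam10, at 9.57 and 8.90 FPKM, did not pass. Psen2, a catalytic subunit of gamma-secretase, was the most abundant of the list at 106 FPKM in control and 54.4 in Nd1, which is 51.1% of control, but its test failed and it carries no call. Psen2 and the genes named here that did not pass were picked after their values were seen.

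Among App relatives, adaptors, sorting receptors and amyloid-degrading enzymes, 3 of 12 tested genes rose and 1 fell in the authors' deposited table, with a list median of 0.13. The called share was 33.3%, near the 34.4% of all tested loci. Itm2c, a BRI-family inhibitor of App processing, rose from 69.8 to 142 FPKM, the endothelin-converting enzyme Ece2 from 0.519 to 2.57 and the sorting receptor Sort1 from 50.2 to 58.5 FPKM. Sorl1, which steers App away from the secretases, fell from 57.4 to 36.5 FPKM (log2 fold change -0.65, SE 0.12). The App homologue Aplp1, at 649 and 686 FPKM, did not pass, and the test failed for Aplp2, at 754 and 822 FPKM. Both were listed above App in each group.

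Other genes from the human Alzheimer risk loci were called in 7 of 13 tested cases in the authors' deposited table, 3 higher and 4 lower, with a median of -0.02. The called share was 53.8%, in a list of few tested genes, beside 34.4% of all tested loci. The membrane-curving Bin1 rose from 20.2 to 32.6 FPKM, the integrin activator Fermt2 from 4.72 to 13.0 and the transcription factor Mef2c from 0.298 to 0.874. Abi3 fell from 5.68 to 2.35 FPKM, the kinase Ptk2b from 4.06 to 2.28 and the phospholipase Plcg2 from 2.68 to 1.39. Slc24a4, the sodium-calcium exchanger that ends the odour response in these neurons, fell from 85.4 to 60.9 FPKM.

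Park2 (mm9 chromosome 17, 11033250 to 12256226, plus strand) rose from 2.56 to 5.05 FPKM. The authors' deposited table gives a log2 fold change of 0.98 and q = 8.13e-15, and with an SE of 0.12 the rise was 1.98-fold, with an interval of 1.68 to 2.33. A further row with this symbol and interval was not tested, at 0.024 FPKM in control and listed at 0 in Nd1. Agpat4, whose interval follows that of Park2, stood at 26.6 and 31.9 FPKM and did not pass.

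Pink1 (mm9 chromosome 4, 137869325 to 137882211, minus strand) was listed at 92.2 FPKM for control and at 90.3 for Nd1. The authors' deposited table gives it a log2 fold change of -0.03 and q = 0.846. The interval of the fold was 0.866 to 1.11. Ddost, its neighbour at 798 bases, stood at 40.2 and 39.7 FPKM and did not pass. Park7 (mm9 chromosome 4, 150271242 to 150284030, minus strand) was listed at 81.9 and 82.1 FPKM. The authors' deposited table gives it a log2 fold change of 0.0047 and q = 0.970. Its interval, 0.914 to 1.10, was the narrowest of the 6 tested members. The Pink1 level was 36.0 times that of Park2 in control and 17.9 times in Nd1.

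**Figure D2:**
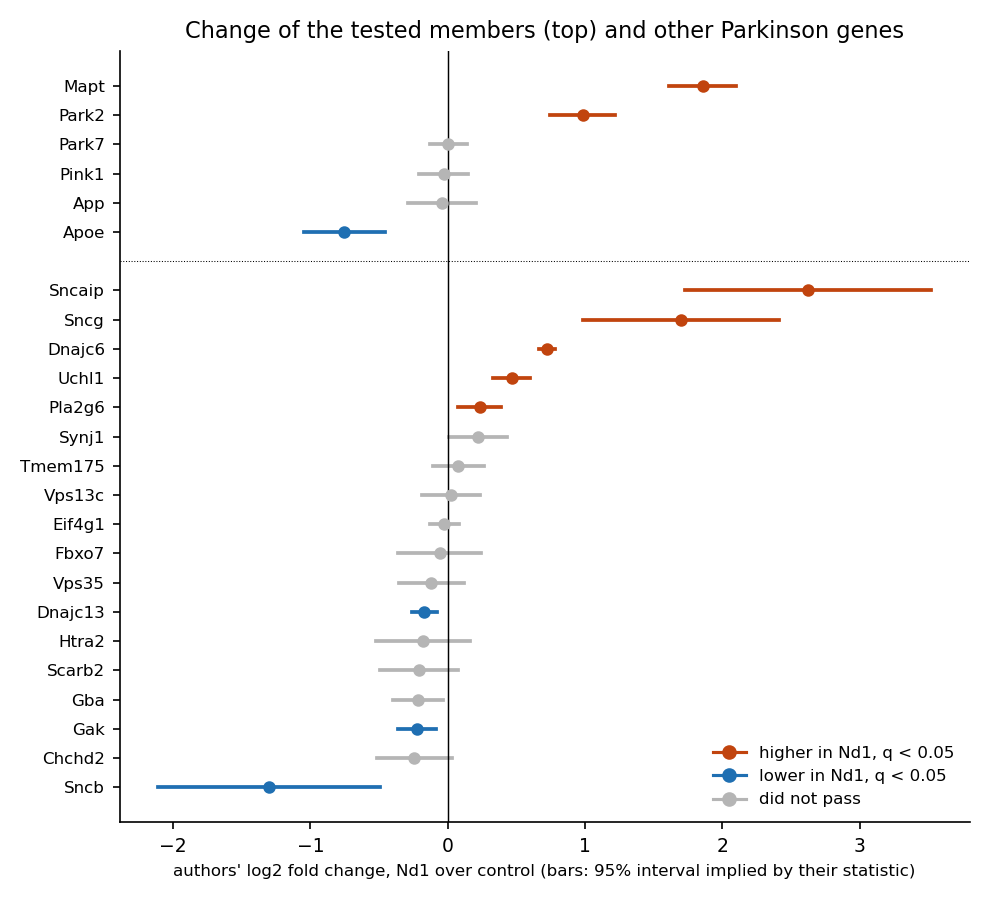
The authors' log2 fold change of Nd1 over control for the 6 tested members (top) and 18 of the tested genes of the list of other Parkinson genes, with bars for the 95% interval derived from their statistic. Mapt at 1.86 and Park2 at 0.98 lie right of 0 and Apoe at -0.75 left of it, while the bars of Park7, Pink1 and App cross 0.

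The genes through which Pink1 and parkin clear mitochondria were mostly not called. Of 30 tested, 1 rose and 2 fell in the authors' deposited table, which is 10% beside the 34.4% of all tested loci, and the list median was 0.01. The autophagy receptor Optn rose from 0.559 to 1.50 FPKM. Calcoco2, another autophagy receptor, fell from 1.50 to 0.642 FPKM and the mitochondrial transport adaptor Trak2 from 28.6 to 22.4. The outer membrane substrates of parkin Mfn1 (27.1 and 27.0 FPKM), Mfn2 (43.0 and 49.4) and Vdac1 (112 and 107) did not pass. They were chosen as examples after their values were seen. In the same list the test failed for Rhot1, at 14.2 and 13.1 FPKM, and Rhot2 had no row of its own.

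Among 19 tested genes of the list of other Parkinson genes, 6 rose and 3 fell in the authors' deposited table, with a median of -0.02. The called share was 47.4%, in a list of few tested genes, beside 34.4% of all tested loci. The ubiquitin hydrolase Uchl1 rose from 246 to 339 FPKM (log2 fold change 0.46, SE 0.07). Gamma-synuclein, Sncg, rose from 1.13 to 3.65 FPKM and beta-synuclein, Sncb, fell from 1.25 to 0.509. The synuclein-binding Sncaip rose from 0.109 to 0.674 FPKM, the clathrin uncoating factor Dnajc6 from 23.3 to 38.4 and the phospholipase Pla2g6 from 3.55 to 4.17. Gak, the kinase related to Dnajc6, fell from 38.4 to 32.9 FPKM, and the endosomal Dnajc13 from 11.4 to 10.2. Vps35, of the retromer, at 62.3 and 57.4 FPKM, did not pass.

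Lrrk2 (mm9 chromosome 15, 91503655 to 91646555, plus strand) was listed at 0.044 FPKM in control and 0.039 in Nd1 and was not tested by the authors. Of all 28168 loci, tested or not, 35.5% had a lower control level and 35.3% a lower level in Nd1. Of 18 tested Rab substrates and partners of Lrrk2, 3 were called in the authors' deposited table, all of them higher, and the median was 0.04. That share of 16.7% is near the 15.1% of all tested loci that were higher, and 34.4% of all were called. The 3 called genes were Rab38, from 0.232 to 2.73 FPKM, Rab3c, from 0.224 to 1.12, and Rab3b, from 36.4 to 48.1. The substrates Rab10 (72.0 and 67.9 FPKM) and Rab8a (26.3 and 25.6) did not pass, and the paralog Lrrk1 was not tested, at 0.191 and 0.129 FPKM.

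**Figure D3:**
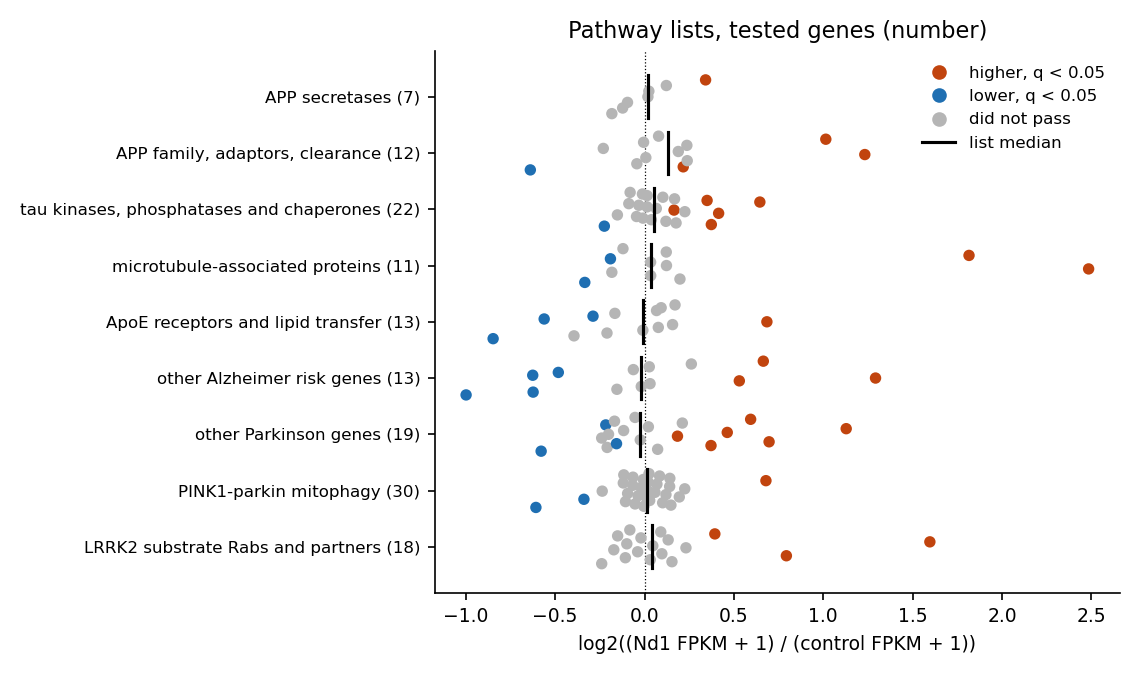
Change of each tested gene of the 9 pathway lists on the log2(FPKM + 1) scale, Nd1 over control, coloured by the authors' call, with a bar at each list median. The medians lie between -0.02 and 0.13, and Mtap2 at 2.48 is the farthest point.

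**Figure D4:**
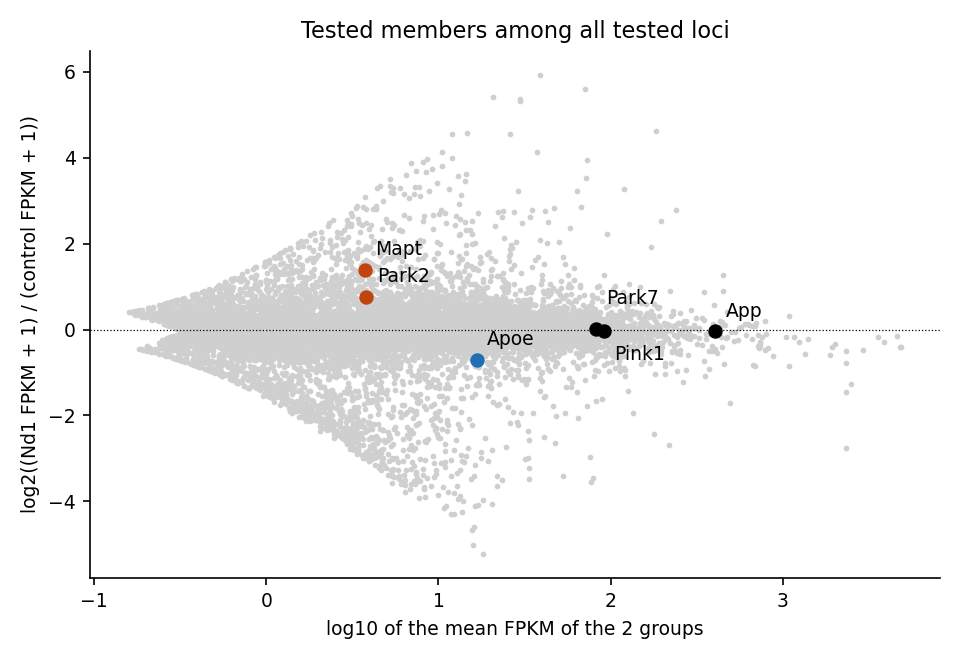
Change on the log2(FPKM + 1) scale against the log10 of the mean FPKM for all 14841 tested loci (grey) and the 6 tested members (coloured by call, black where not called). Mapt and Park2 lie above 0 at 1.39 and 0.77, Apoe below it at -0.71, and App, Park7 and Pink1 near 0 at higher levels.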

How the data were processed

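Polyadenylated RNA of sorted olfactory neurons was sequenced in 4 libraries after Illumina TruSeq preparation, per the labels' protocols. Bowtie, Cuffdiff 1.3.0 and the build mm9 are named in the submitters' processing notes. Which annotation and filters were used is not given in the sources used here. A deposited table gives 1 FPKM value per group, read as FPKM because Cuffdiff writes that unit, with the authors' log2 fold change, statistic, p-value and q-value, per the file headers. Depth per library is unknown. Of 28168 rows, 14841 were tested, 12711 were not tested and 616 failed.

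Test calls are the authors', at q under 0.05. No test was run here, because no column holds a value per library. Symbols with several rows are represented by the row of highest mean FPKM, and rows that join several symbols were left out. List changes are log2 ratios with 1 FPKM added, which understates low genes. The members and lists were chosen with earlier results of these data known. By the naming rule the members are always named, with up to 4 called genes per list by size of change and every call where 5 or fewer share a direction. Further list genes were picked after their values were seen, and a few genes that the rule names are not reported here. Starts have 1 added to the table's value. Strand and transcript counts come from GENCODE M21, on another build whose coordinates are used for promoters alone. The adjustment and interval code were tested on simulated data. Python 3.11.15, pandas 2.3.3 and scipy 1.17.1 were used.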

Additional observations from a re-analysis of the deposited data

How the results depend on the processing

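The counts of members called (3), higher (2) and lower (1) were the same at q under 0.01, with the adjustment made over loci of at least 0.5 FPKM or without odorant receptors, and with a minimum change of 1.5-fold. Of 48 recomputed counts over members and lists, 40 stayed within 1.5 times. At q under 0.01 the calls were 0 in place of 1 for the APP secretases, 3 in place of 6 for the tau kinases, phosphatases and chaperones, and 2 in place of 4 for the microtubule-associated proteins. With a minimum of 1.5-fold they were 0, 1 and 2 for these lists, 2 in place of 4 for the ApoE receptors and lipid transfer genes, and 4 in place of 9 for the other Parkinson genes, since small called changes were left out. The log2(FPKM + 1) changes of Mapt, Park2 and Apoe kept their sign under another pseudocount (0.1 or none), quantile normalization, median-ratio scaling and summing over rows, at 1.39 to 1.86 for Mapt, 0.76 to 0.98 for Park2 and -0.75 to -0.67 for Apoe. App, which was not called, moved from -0.04 to 0.11 after quantile normalization and to 0.003 after median-ratio scaling. Pink1 moved from -0.03 to 0.003 and 0.01. No paired analysis was possible because the table holds a pooled value per group and no value per library, and for the same reason no replicate could be left out.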

Other observations

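Some genes close to members were called too, of which the first 3 described here were chosen after their values were seen. Crhr1, the receptor of corticotropin-releasing hormone, has an interval (mm9 chromosome 11, 103994196 to 104036832) that lies before that of Mapt, with another named row between them. It rose from 0.704 to 4.46 FPKM, and the authors' deposited table gives a log2 fold change of 2.66 and q = 1.08e-05. The laminin receptor Bcam, in the neighbourhood of Apoe, rose from 4.53 to 11.3 FPKM (log2 fold change 1.32 and q = 3.2e-09 in the authors' deposited table). The joined row of Kif17 and Sh2d5, near Pink1, rose from 8.94 to 14.7 FPKM, with q listed as 0 in the authors' deposited table. Cep164 and Sidt2, the named genes on either side of the Bace1 interval, fell from 28.2 to 23.2 FPKM and from 15.5 to 11.8 FPKM.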
